A study of Rattus norvegicus with 18 samples.

Results

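The expression of 8 genes of the complement system, C1qa, C1qb, C1qc, C1r, C1s, Serping1, C3 and C3ar1, was examined in the hippocampus of rats on control diet, on chronic ethanol and in withdrawal. The 8 genes were chosen by symbol, with earlier results of these rats known, from the 38445 genes counted, and all 8 were present in the files and passed the filter on low values. Their differences between groups are therefore given as a description, with the adjusted p-value (q) that each gene had in a limma-voom fit of all 17853 genes tested. Every q below is from that kind of fit unless another tool is named, and a gene was called at q < 0.1. Another 47 complement genes were listed by role for comparison. RNA was taken from the hippocampus, the dorsal part per the study's methods, of 18 male Sprague-Dawley wild-type rats purchased at 75 to 85 days of age, 6 per group. Control rats received the Lieber-DeCarli liquid diet without ethanol. After a gradual introduction of ethanol, ethanol rats were kept on the same diet with 9% v/v ethanol for 16 days and were not withdrawn. Withdrawal rats, introduced in the same way, had 15 days at 9% and then control diet for 24 h. Each library came from 1 rat, and the rats carried no transgene.

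Complement is a cascade of proteins that mark surfaces for removal. The classical pathway starts with C1, in which the recognition molecule C1q, assembled from the chains encoded by C1qa, C1qb and C1qc, carries the proteases C1r and C1s. Serping1 encodes the C1 inhibitor, which inactivates C1r and C1s. The cascade cleaves C3, whose larger fragment tags the target and whose smaller fragment, C3a, binds the receptor encoded by C3ar1. In the brain C1q is made largely by microglia, and C1q and C3 are known for their part in the removal of synapses.

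Libraries held 30873228 to 42679748 counts on genes. The counts per rat were 71 to 142 for C3ar1 and 225 or more for the other 7 genes. Levels are given as TMM-normalized CPM, that is, counts scaled by library size. Of 7 hippocampal marker genes, Fibcd1 was at most 0.0651 CPM in every rat and was not tested, while the summed level of the list was 599 to 819 CPM in control, 404 to 823 CPM in ethanol and 227 to 739 CPM in withdrawal rats, the lowest in withdrawal rat 5. Of the 6 tested, 5 had negative log2 fold changes for withdrawal vs. control and 1 was called, Prox1, a marker of dentate granule cells, which was lower in withdrawal (117 to 148 CPM in control and 52.9 to 147 CPM in withdrawal rats, 5 of 6 below every control rat, log2 fold change −0.26, SE 0.08, q = 0.0968). The part of this difference in the levels of the complement genes was not tested. Withdrawal rats 4 and 5 stood apart in choroid plexus RNA, with 21.8 and 20.3 CPM of the choroid plexus gene Ttr against 960.4 CPM or more in every other rat. The index sequences of the libraries came from 3 sets, and all 6 control rats had a set that no other rat had. Index set and control diet cannot be told apart. In bulk tissue, fewer cells of a type and less RNA per cell cannot be told apart either.

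The C1q chains are encoded by neighbouring genes on the minus strand of chromosome 5 (Rnor_6.0), C1qb at 155246444 to 155251995, C1qc at 155255013 to 155258631 and C1qa at 155261254 to 155264101. The promoters of C1qa and C1qb are shown because these genes had the highest levels per length of the 8 and varied together over the rats. Each sequence is the 250 bases before the start site in RefSeq on GRCr8, read in the direction of the gene, from chr5:154419934-154420183 (minus strand) for C1qa and chr5:154407828-154408077 (minus strand) for C1qb. Capitals mark matches to 3 motifs searched on both strands, the core GAGGAA of the macrophage and microglial factor PU.1, the STAT motif TTCNNNGAA and the C/EBP motif TTNCNNAA. Promoters were present in the reference table for 5 of the 8 genes, and those of C1qc, C1s and Serping1 were not among them.
C1qa: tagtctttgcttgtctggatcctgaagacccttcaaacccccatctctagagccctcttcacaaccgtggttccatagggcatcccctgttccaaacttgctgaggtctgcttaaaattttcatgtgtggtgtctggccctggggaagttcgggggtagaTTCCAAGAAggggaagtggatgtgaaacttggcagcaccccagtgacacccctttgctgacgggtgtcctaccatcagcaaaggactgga
C1qb: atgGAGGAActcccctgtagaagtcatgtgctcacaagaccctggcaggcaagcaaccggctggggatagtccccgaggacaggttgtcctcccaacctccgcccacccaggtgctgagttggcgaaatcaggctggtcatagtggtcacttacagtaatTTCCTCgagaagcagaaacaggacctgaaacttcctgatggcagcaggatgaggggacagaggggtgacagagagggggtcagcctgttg

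The promoter of C1qa held 1 STAT match, which starts 90 bases before the start site, and no match to the other motifs. The promoter of C1qb held 2 PU.1 core matches, starting 247 and 90 bases before the start site, the second of them on the opposite strand. Of all 33469 promoters in the table, each of 300 bases and searched whole, 8.87% held the STAT motif, 27.6% the PU.1 core and 41.3% the C/EBP motif. A match is a string of letters and was not tested for binding.

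C1qb was higher in withdrawal than in control and ethanol rats. Its level was 21.6 to 26.6 CPM in control rats (median 23.1), 21.6 to 26.9 CPM in ethanol rats (median 22.8) and 23.5 to 35.7 CPM in withdrawal rats (median 29.5). The control and ethanol ranges nearly coincided, and 5 of 6 withdrawal rats lay above every control and every ethanol rat, with only withdrawal rat 5 inside those ranges. The mean was 30.1 ± 4.55 CPM (SD, n = 6) in withdrawal and 23.6 ± 1.86 CPM in control, with a log2 fold change of 0.38 (SE 0.07, q = 0.0198). Against ethanol (23.6 ± 2.01 CPM) the log2 fold change was 0.35 (SE 0.08, q = 0.0475), and for ethanol vs. control it was 0.03 (SE 0.08, q = 0.918). Withdrawal rats 1 and 2, the only withdrawal rats that shared the index set of the ethanol rats, were at 35.7 and 27.7 CPM. For C1qc the same rats were at 29.7 and 18.7 CPM, and the highest ethanol rat was at 21.4 CPM. The part of index set in these levels was not tested.

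C1qc, the C chain, was called higher in withdrawal than in control rats as well, but its ethanol rats lay in between. The level was 14.1 to 19.2 CPM in control (median 16.7), 15.7 to 21.4 CPM in ethanol (median 18.0) and 16.2 to 29.7 CPM in withdrawal (median 19.7). The groups overlapped, 3 of 6 withdrawal rats were above every control rat, and the highest level belonged to withdrawal rat 1. The log2 fold change was 0.38 for withdrawal vs. control (SE 0.12, q = 0.091), 0.24 for ethanol vs. control (SE 0.13, q = 0.462) and 0.14 for withdrawal vs. ethanol (SE 0.13, q = 0.605).

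C1qa, the A chain, was not called in any comparison. Its level was 33.2 to 42.3 CPM in control (median 37.6), 32.4 to 38.7 CPM in ethanol (median 35.3) and 32 to 50 CPM in withdrawal (median 41.3). Both the lowest and the highest of the 18 rats were in withdrawal, rats 5 and 1. The log2 fold change was 0.18 against control (SE 0.08, q = 0.227) and 0.28 against ethanol (SE 0.09, q = 0.138). The latter was past the threshold with 4 surrogate variables (q = 0.0883), with sample quality weights (q = 0.0953) and with DESeq2 (q = 0.0541), and without ethanol rat 5 (q = 0.099) or withdrawal rat 2 (q = 0.0845) or 3 (q = 0.0893).

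**Figure D1:**
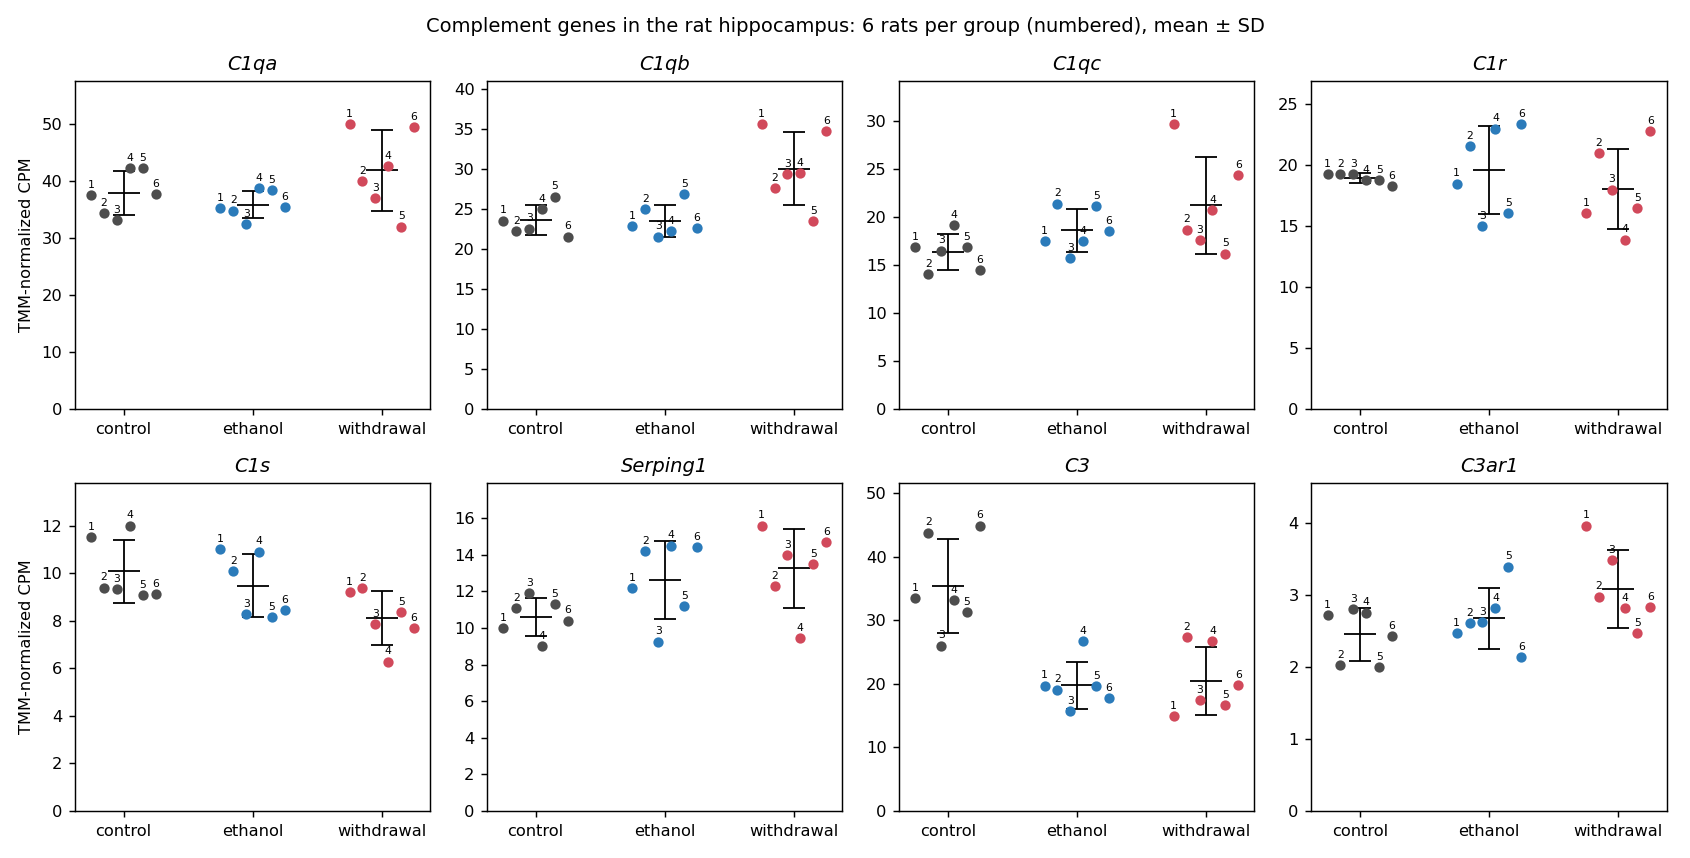
Levels of the 8 complement genes as TMM-normalized CPM (y axis, from 0) in each of 6 rats per group (x axis), with points numbered by rat and bars for the mean and SD. C3 was lower in ethanol and withdrawal than in control rats, C1qb was higher in 5 of 6 withdrawal rats, and withdrawal rat 1 was the highest rat for C1qa, C1qb, C1qc, Serping1 and C3ar1 and the lowest for C3.

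Calls between withdrawal and control depended on the model and on single rats, those of C1qb and C1qc among them, which were called under 9 and 5 of 13 other settings. Without surrogate variables, which stand for unnamed sources of variation estimated from the data, the log2 fold changes were 0.34 and 0.34 and q rose to 0.152 and 0.296, while the share of all genes called fell from 5.41% to 0.23%. When withdrawal rat 6 was left out, q was 0.114 for C1qb and 0.29 for C1qc, the log2 fold changes were 0.35 and 0.33, and 0.129% of all genes were called. When withdrawal rats 4 and 5 were left out together because of their low choroid plexus RNA, the log2 fold change was 0.27 for C1qb (q = 0.141) and 0.19 for C1qc (q = 0.575), and 0 of the 8 genes were called between withdrawal and control, as were only 7 of 17754 genes tested (0.0394%). The call of C1qc was also lost, at q up to 0.165, when withdrawal rat 1, ethanol rat 4 or 6, or any control rat but rat 4 was left out. The call of C1qb between withdrawal and ethanol was lost without withdrawal rat 6 (q = 0.325), ethanol rat 2 (q = 0.168) or ethanol rat 3 (q = 0.186). In each of these 3 fits 0 of all genes tested were called by limma-voom, with 1917, 2020 and 2178 genes at an unadjusted p under 0.05, and the log2 fold change of C1qb was 0.30 to 0.40 whichever of the 18 rats was left out.

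Because the chains join in 1 molecule, their ratios within each rat are of interest, and the ratios were looked at after the levels had been seen. Per kb of exon, C1qb was 0.533 to 0.631 of C1qa in control rats, 0.534 to 0.666 in ethanol rats and 0.644 to 0.739 in withdrawal rats. All 6 withdrawal rats were thus above all 6 control rats in this ratio, while the ethanol rats overlapped both groups. C1qc was 0.292 to 0.377 of C1qa in control, 0.343 to 0.466 in ethanol and 0.354 to 0.451 in withdrawal rats, and here all groups overlapped. Of the 6 ratios computed between genes of C1 and its inhibitor, 2 did not overlap between withdrawal and control rats. These were C1qb to C1qa and Serping1 to C1s, each by a narrow margin, and 0 were so separated in each of the other comparisons. The share of ratios so separated over other pairs of genes was not computed, so nothing is read from this count.

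**Figure D2:**
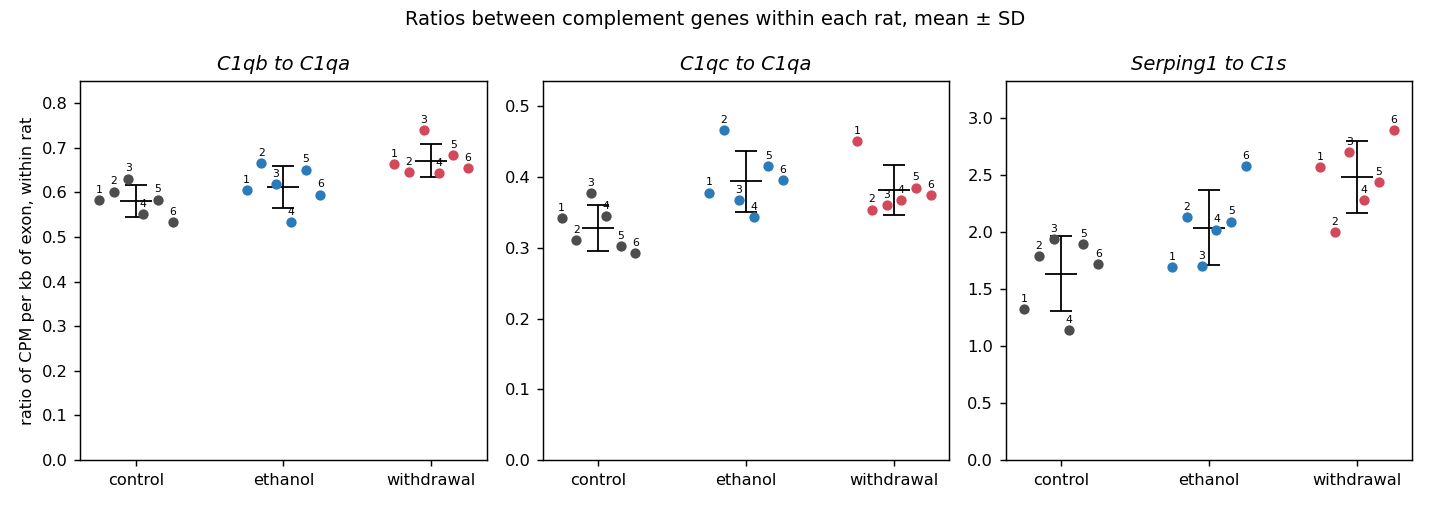
Ratios of CPM per kb of exon within each rat (y axis, from 0) for C1qb to C1qa, C1qc to C1qa and Serping1 to C1s in 6 rats per group (x axis, points numbered by rat, mean and SD as bars). The C1qb to C1qa ratio was at least 0.644 in withdrawal and at most 0.631 in control rats, and the Serping1 to C1s ratio at least 2.0 and at most 1.94.

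Of the proteases of C1 and their inhibitor, only the inhibitor was called, higher after withdrawal vs. control. C1r (chromosome 4, 157126060 to 157136825, plus strand) and C1s (chromosome 4, 157143592 to 157155592, minus strand) lie side by side, and Serping1 is on chromosome 3 (72161230 to 72171109). C1r was 18.3 to 19.3 CPM in control (median 19), 15.0 to 23.4 CPM in ethanol (median 20) and 13.9 to 22.8 CPM in withdrawal rats (median 17.3). The control rats were close together, at 19 ± 0.403 CPM (SD, n = 6), and the other groups spread to both sides of them, at 19.6 ± 3.61 and 18.1 ± 3.31 CPM. The SD of the control rats was 2.12% of their mean, less than the 3.87% that counting error alone gives at their mean of 667 counts. The fitted log2 fold changes of C1r were small, −0.05 for ethanol vs. control (SE 0.10, q = 0.88), −0.01 for withdrawal vs. control (SE 0.10, q = 0.976) and 0.05 for withdrawal vs. ethanol (SE 0.11, q = 0.873), and each of them changed sign under some other model.

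C1s, the protease that C1r activates, was 9.09 to 12 CPM in control (median 9.36), 8.16 to 11.0 CPM in ethanol (median 9.26) and 6.28 to 9.37 CPM in withdrawal rats (median 8.11). All 6 withdrawal rats were below the control mean of 10.1 CPM and 4 were below every control rat, and the groups overlapped. The log2 fold change in withdrawal was −0.27 against control (SE 0.10, q = 0.138) and −0.13 against ethanol (SE 0.11, q = 0.595), and that in ethanol was −0.14 against control (SE 0.10, q = 0.607). The difference between withdrawal and control was called under 2 of 13 other settings, DESeq2 (q = 0.0739) and a replicate block (q = 0.0996), and with limma-voom it was also called when withdrawal rat 2 was left out (q = 0.072).

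The level of Serping1 was 9.02 to 11.9 CPM in control (median 10.7), 9.26 to 14.5 CPM in ethanol (median 13.2) and 9.46 to 15.6 CPM in withdrawal rats (median 13.7). In withdrawal 5 of 6 rats and in ethanol 4 of 6 rats were above every control rat, and withdrawal rat 4 and ethanol rats 3 and 5 lay within the control range. The log2 fold change was 0.34 for withdrawal vs. control (SE 0.10, q = 0.09) and 0.20 for ethanol vs. control (SE 0.11, q = 0.507). The withdrawal call held under 5 of 13 other settings. It was lost without surrogate variables (log2 fold change 0.30, q = 0.359), when withdrawal rats 4 and 5 were left out together (q = 0.389) and when 1 of 10 of the 18 rats was left out, with the highest q, 0.253, without withdrawal rat 6. Those rats were control rats 1, 2, 3, 4 and 6, ethanol rat 5 and withdrawal rats 1, 3, 5 and 6. Per kb of exon, the level of Serping1 was 1.14 to 1.94 times that of its target C1s in control, 1.69 to 2.58 times in ethanol and 2.0 to 2.89 times in withdrawal rats, so that every withdrawal rat was above every control rat, by a narrow margin. The ratio of Serping1 to its other target, C1r, was 0.68 to 0.878 in control, 0.87 to 0.988 in ethanol and 0.832 to 1.37 in withdrawal rats, with overlap between the groups, and C1qc to C1qb and C1s to C1r overlapped as well.

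C3, the central component, had the largest difference of the 8 genes, and it was lower in both ethanol-exposed groups. The gene lies on chromosome 9 (9721137 to 9747084, Rnor_6.0). Its promoter is shown because C3 is the gene called in both comparisons with control; it is given from chr9:2201340-2201589 (minus strand) of GRCr8, with matches to the C/EBP motif in capitals, which start 117 and 104 bases before the start site.
C3: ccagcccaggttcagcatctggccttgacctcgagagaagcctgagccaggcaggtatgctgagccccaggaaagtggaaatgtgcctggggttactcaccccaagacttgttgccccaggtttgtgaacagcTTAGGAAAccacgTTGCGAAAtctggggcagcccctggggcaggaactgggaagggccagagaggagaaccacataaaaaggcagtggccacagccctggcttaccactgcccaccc

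No match to the PU.1 core or the STAT motif was found in the promoter of C3. The promoter of C1r held 1 PU.1 core match and 2 C/EBP matches, and that of C3ar1 held none of the 3 motifs. C3 was 26 to 44.9 CPM in control rats (median 33.3), 15.7 to 26.7 CPM in ethanol rats (median 19.4) and 14.9 to 27.3 CPM in withdrawal rats (median 18.6). All 12 ethanol and withdrawal rats were below the control mean, 5 of 6 ethanol rats and 4 of 6 withdrawal rats were below every control rat, and the overlap came from control rat 3 at 26 CPM, ethanol rat 4 at 26.7 CPM and withdrawal rats 2 and 4 at 27.3 and 26.7 CPM. The control mean was 35.5 ± 7.44 CPM (SD, n = 6) and the ethanol mean 19.8 ± 3.69 CPM, with a log2 fold change of −0.89 (SE 0.17, q = 0.0688). In withdrawal it was 20.4 ± 5.31 CPM, with a log2 fold change of −0.77 against control (SE 0.16, q = 0.0247) and of 0.13 against ethanol (SE 0.19, q = 0.782). These comparisons share the 6 control rats.

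Without surrogate variables the decrease of C3 stayed past the threshold against control, with q = 0.078 in ethanol and q = 0.076 in withdrawal. The call in ethanol was lost when control rat 1, 4 or 6 or ethanol rat 3 or 6 was left out, with q up to 0.217, and the log2 fold change ranged from −0.97 to −0.77 over the 18 rats left out in turn. The call in withdrawal was lost only without withdrawal rat 6 among the single rats left out (log2 fold change −0.7, q = 0.144), and also without withdrawal rats 4 and 5 together (log2 fold change −0.64, q = 0.213).

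C3ar1, the receptor for C3a, was the least abundant of the 8 genes. It was 2.0 to 2.81 CPM in control (median 2.57), 2.14 to 3.4 CPM in ethanol (median 2.62) and 2.47 to 3.97 CPM in withdrawal rats (median 2.91). All 6 withdrawal rats were above the control mean of 2.46 CPM and 5 were above every control rat, although the groups overlapped through withdrawal rat 5. The log2 fold change was 0.35 for withdrawal vs. control (SE 0.13, q = 0.151) and 0.19 for ethanol vs. control (SE 0.14, q = 0.621).

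**Figure D3:**
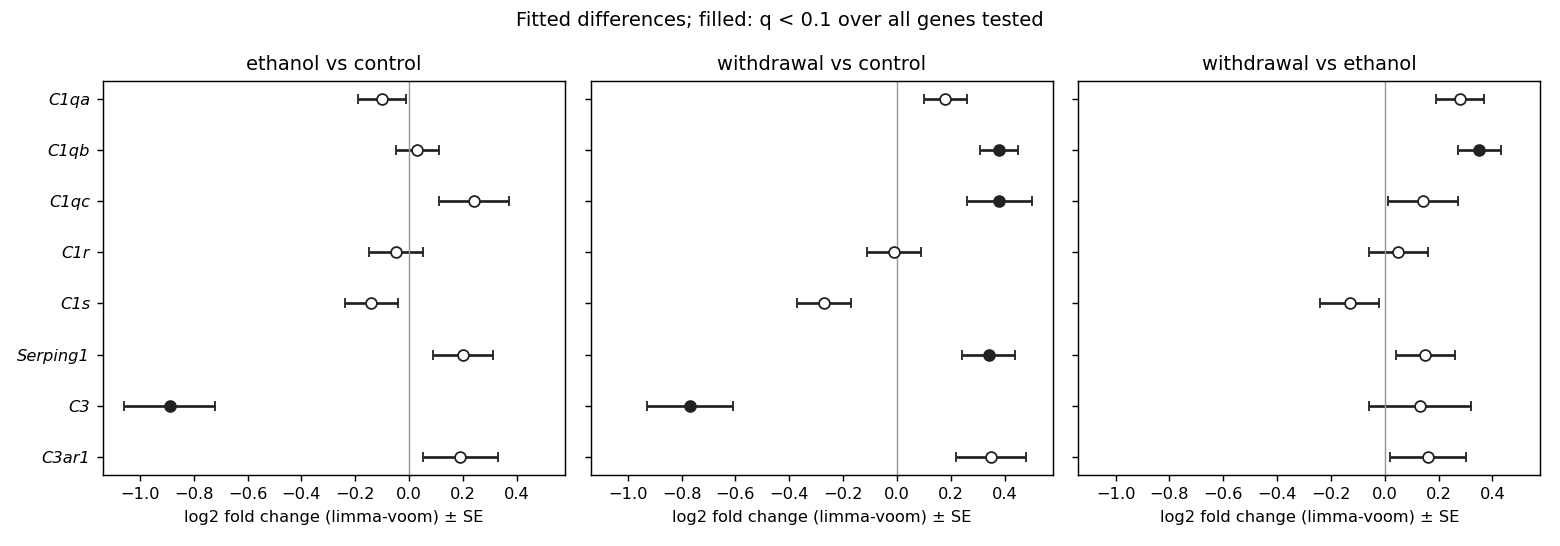
Fitted log2 fold changes with SE (x axis) of the 8 complement genes (y axis) in ethanol vs control, withdrawal vs control and withdrawal vs ethanol, with filled points for q < 0.1 over all genes tested. C3 was at −0.89 and −0.77 against control, C1qb at 0.38 and 0.35 in withdrawal, and 4 of 8 genes were called between withdrawal and control.

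In all, 1 of the 8 genes was called between ethanol and control (C3, lower), where 0.493% of all genes tested were called. Between withdrawal and control 4 of 8 were called, against 5.41% of all genes, with C1qb, C1qc and Serping1 higher (2.85% of all genes were called higher in withdrawal) and C3 lower (2.55% were called lower). Between withdrawal and ethanol 1 of 8 was called (C1qb, higher), against 2.72% of all genes. The genes were chosen with these values known, so nothing is read from the counts beside the percentages. The median log2 fold change of the 8 genes was −0.01, 0.26 and 0.15 in these comparisons, and that of all genes tested was 0.0 in each. For 0 of the 8 genes did the rats of 1 group all lie beyond the rats of the other, while 1.32% of all genes tested were so separated between ethanol and control, 1.06% between withdrawal and control and 1.22% between withdrawal and ethanol.

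Levels of different genes were compared per kb of exon. In control rats C1qa was at 37.8 ± 3.78 CPM per kb (SD, n = 6), C1qb at 21.9 ± 1.73, C1qc at 12.4 ± 1.4, C1r at 7.02 ± 0.149, C3 at 6.99 ± 1.47, Serping1 at 5.57 ± 0.547, C1s at 3.48 ± 0.449 and C3ar1 at 0.577 ± 0.0859. The order C1qa, C1qb, C1qc, C1r held at each step in 18 of 18 rats, as did the step from C1s to C3ar1. C3 and Serping1 were not separated in control rats, since their ranges overlapped. C3 was below Serping1 in the means of the other groups, at 3.9 ± 0.728 against 6.61 ± 1.1 CPM per kb in ethanol and 4.03 ± 1.05 against 6.94 ± 1.13 in withdrawal rats. Serping1 was above C3 in 12 of all 18 rats.

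Within the groups, the C1q chains varied together, as did C1r and Serping1. After removal of the group means, log2 CPM correlated over the 18 rats with r = 0.85 between C1qa and C1qb, 0.80 between C1qa and C1qc and 0.88 between C1qb and C1qc. Without withdrawal rat 1, the highest for all 3 chains, r was 0.81, 0.74 and 0.85. C1r and Serping1 correlated at 0.69 (0.80 without withdrawal rat 1). Both were lowest of the withdrawal rats in rat 4, at 13.9 and 9.46 CPM, and r without that rat was not computed. C1r and C1s correlated at 0.40 and C1s and Serping1 at 0.31, while C1qb correlated with C1r at 0.07 and with C3 at −0.19. The correlations of C3 with the others were −0.26 to 0.20, and up to 0.36 (with C1qa) without withdrawal rat 1. C3ar1 correlated at 0.32 to 0.50 with the C1q chains, and at 0.14 to 0.30 without withdrawal rat 1. The correlations describe these 18 rats, where both values of a pair come from the same library and share its depth, and no p is given for them.

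**Figure D4:**
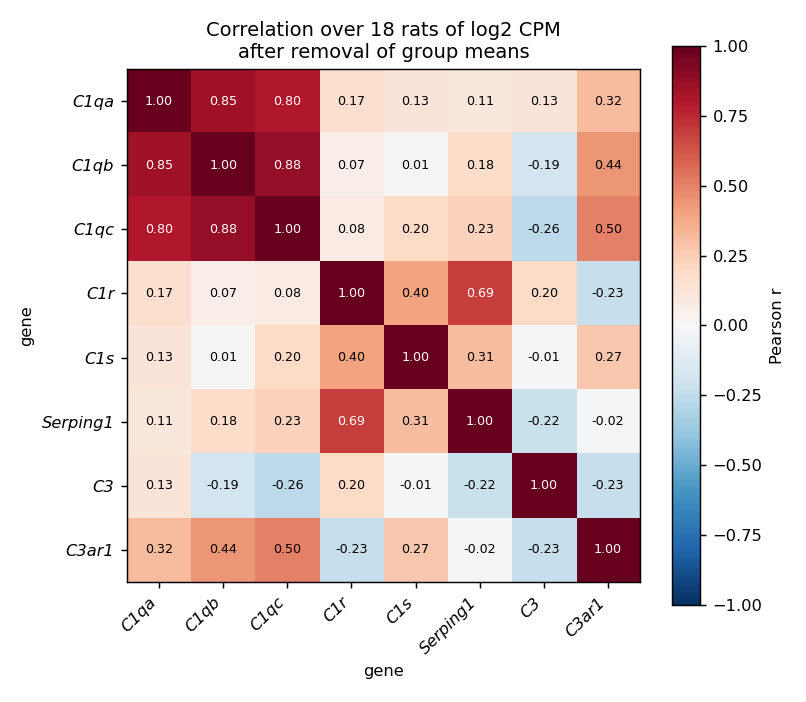
Pearson correlations over 18 rats of log2 CPM after removal of group means, for each pair of the 8 complement genes (both axes), with colour and printed number for r. The C1q chains correlated with each other at 0.80 to 0.88 and C1r with Serping1 at 0.69.

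Of the 15136 other genes compared by the same measure, those most like C1qb were Cebpd (r = 0.94), which encodes a C/EBP transcription factor, Xpo6 (0.90), which encodes an exportin, and the gene of the microRNA Mir22 (0.87). The genes most like C1qa were Cebpd (0.88), Tanc1 (0.88) and Klhl21 (0.87), and those most like C1qc were the splicing factor gene Tra2b (0.88), Ttc39c (0.86) and Ncbp3 (0.86). Cebpd was itself called higher in withdrawal than in control, at 14.3 against 9.69 CPM on average (log2 fold change 0.59, SE 0.15, q = 0.0504). Against ethanol it was not called (log2 fold change 0.44, SE 0.16, q = 0.183). Of the other genes named in this paragraph, Xpo6 (q = 0.0638), Tax1bp3 (q = 0.0755) and Lamc1 (q = 0.0504) were also called higher in withdrawal than in control. C1r was most like Layn (0.86), Rflnb (0.84) and Adamtsl4 (0.84), and Serping1 most like Tax1bp3 (0.80), Tvp23b (0.78) and the laminin gene Lamc1 (0.74). C3 was most like Zeb2-as1 (0.86), the mitotic kinesin gene Kif11 (0.80) and Cyp2r1 (0.79), all at under 2 CPM in control rats. The genes most like C1s and C3ar1 reached lower values. For C1s they were Pgm1 at 0.75, and an unnamed gene and Atosb at 0.73. For C3ar1 they were LOC108350199 at 0.76, Aff4 at 0.76 and Kcna4 at 0.75. All of these correlations are the highest among 15136 genes, which by itself raises them, and none was tested.

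Among the 47 other complement genes, 35 were tested. Between ethanol and control 2 of the 35 were called, where 0.493% of all genes were, and 1 of them is described. Csmd3, a large membrane protein gene of a family of complement regulators, was 22.5 to 28.0 CPM in control and 17.7 to 23.5 CPM in ethanol rats, with a log2 fold change of −0.23 (SE 0.05, q = 0.0967). Its log2 fold change was −0.25 to −0.22 whichever of the 18 rats was left out. Without surrogate variables its q was 0.222. The call was also lost, with q up to 0.265, without control rat 1, 2, 3, 4 or 6, ethanol rat 2, 3, 4 or 6 or withdrawal rat 2, 3, 4 or 6.

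Between withdrawal and control 1 of the 35 was called, against 5.41% of all genes. C5ar2, a second receptor for the C5a fragment, was 2.76 to 4.15 CPM in control (median 3.26) and 1.91 to 2.8 CPM in withdrawal rats (median 2.39). The log2 fold change was −0.45 (SE 0.13, q = 0.0784), and −0.51 to −0.38 whichever of the 18 rats was left out. The call was lost without surrogate variables (q = 0.171). It was also lost, with q up to 0.223, without control rat 1, 2, 5 or 6, ethanol rat 4 or withdrawal rat 1, 3, 5 or 6. Between withdrawal and ethanol 1 was called (2.72% of all genes were), C4b, which encodes the component C4 that C1s cleaves. C4b was 0.929 to 1.87 CPM in ethanol (median 1.5), 2.21 to 6.11 CPM in withdrawal (median 4.29) and 1.71 to 3.84 CPM in control rats (median 2.5). Every withdrawal rat was above every ethanol rat, and control rats overlapped both groups. The log2 fold change was 1.18 (SE 0.29, q = 0.065) and lost its call without withdrawal rat 6 (log2 fold change 0.88, q = 0.366), ethanol rat 2 (q = 0.243) or ethanol rat 3 (q = 0.238), or without withdrawal rats 4 and 5 (log2 fold change 0.91, q = 0.12). C4a, a near-identical copy, was listed at 0 in all 18 rats, and read pairs that map to both copies were not counted, so the level of C4b is uncertain.

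The other complement genes with more than 10 CPM in control rats were mostly regulators. Clu, which encodes clusterin, was the most abundant at 819, 977 and 854 CPM on average in control, ethanol and withdrawal rats. The regulators Cd59b, Susd4, Csmd1, Csmd2, Vtn and Cr1l, the protease gene Masp1, C2, the properdin gene Cfp, C7 and the receptor subunit gene Itgam were not called in any comparison. Cfb, the alternative pathway protease, was at 8.76, 7.54 and 12.6 CPM on average, with a log2 fold change of 0.67 for withdrawal vs. ethanol (SE 0.21, q = 0.119). Mbl1, Mbl2, Fcnb, Colec10, C4a, C5, C8a, C8b, C9, Vsig4, C4bpa and Cpn2 were removed by the filter, so that of the terminal components only C6, C7 and C8g were tested. The median log2 fold change of the 35 genes was −0.05, 0.01 and 0.09 in ethanol vs control, withdrawal vs control and withdrawal vs ethanol.

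Cell type markers were set beside these results. Of 16 microglial markers, 0 were called higher in any comparison and 1, Selplg, was called lower in withdrawal than in control (log2 fold change −0.58, SE 0.16, q = 0.0717). The summed level of the 16 was 465 to 564 CPM in control, 487 to 526 CPM in ethanol and 439.9 to 562 CPM in withdrawal rats. Within groups, C1qb correlated over the 18 rats at 0.65 with Ctss, which encodes a lysosomal protease of microglia. It correlated at −0.10 with Csf1r, −0.05 with Cx3cr1 and 0.05 with P2ry12, and at 0.58 with the astrocyte marker Gfap. Between withdrawal and ethanol 11 of the 16 had positive log2 fold changes, and Tyrobp (0.31) and Trem2 (0.30) were above C1qa (0.28) and C1qc (0.14) and below C1qb (0.35). Of 7 border macrophage markers 6 were tested and 0 were called, with sums of 23 to 27.7 CPM in control, 24.0 to 36 CPM in ethanol and 17.4 to 34.4 CPM in withdrawal rats.

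Of 11 endothelial markers 6 were called higher in withdrawal than in control, where 2.85% of all genes were called higher, among them Kdr (log2 fold change 0.60), Egfl7 (0.41), Pecam1 (0.34) and Vwf (0.33). The other 5, Slco1a4, Tek, Cdh5, Ocln and Cldn5, were not called and had log2 fold changes of −0.08 to 0.11. The summed level of the 11 was 364 to 445 CPM in control, 401 to 475 CPM in ethanol and 397 to 529 CPM in withdrawal rats. Of 8 mural cell markers, Pdgfrb was called higher in withdrawal than in control (log2 fold change 0.25) and Abcc9 higher in withdrawal than in ethanol (0.32, SE 0.09, q = 0.0859), with sums of 187 to 253, 199.6 to 321 and 213 to 360.3 CPM. Of 14 astrocyte markers, Gfap (log2 fold change 0.54) and Sox9 (0.37) were called higher and Aldh1l1 (−0.41) and Gja1 (−0.13) lower for withdrawal vs. control, and Gfap was also called higher than in ethanol (0.74, SE 0.17, q = 0.0578), with sums of 5561 to 6024 CPM in control, 5049 to 5836 CPM in ethanol and 5635 to 6828 CPM in withdrawal rats. Without surrogate variables q was 0.282 for Kdr, 0.205 for Pecam1 and 0.385 for Gfap, in a fit that called 0.23% of all genes. Over 13 other settings, that fit among them, their log2 fold changes against control were 0.53 to 0.62, 0.31 to 0.35 and 0.44 to 0.59. The part of these cells in the levels of Serping1 and the C1q genes was not tested.

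Red cell transcripts, like C3, were lower in both ethanol-exposed groups than in control rats. All 4 erythroid markers were called lower in ethanol and in withdrawal than in control rats (0.493% and 5.41% of all genes were called in either direction), with summed levels of 127 to 225 CPM in control, 37.0 to 96.1 CPM in ethanol and 41.5 to 150.5 CPM in withdrawal rats. Hbb, a haemoglobin gene, was 56.9 to 101 CPM in control, 16.1 to 39.4 CPM in ethanol and 17.6 to 63.8 CPM in withdrawal rats, with log2 fold changes of −1.59 (SE 0.29, q = 0.0562) and −1.51 (SE 0.27, q = 0.0195) against control. Within groups, C3 and Hbb correlated over the 18 rats at 0.17, while Hbb correlated with C1qa, C1qb and C1qc at −0.44, −0.52 and −0.31. The part of blood in the level of C3 was not tested. Of 5 blood leukocyte markers matched, 2 were tested and 0 were called, with sums of 8.22 to 12.7 CPM in control, 5.11 to 10.4 CPM in ethanol and 2.04 to 13.2 CPM in withdrawal rats.

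Choroid plexus markers varied most. Of 12 such markers 11 were tested and 0 were called, and their summed level was 1214 to 2529 CPM in control, 1656 to 5886 CPM in ethanol and 32.6 to 5936 CPM in withdrawal rats, with Otx2 at most 0.0568 CPM. Within groups Ttr correlated over the 18 rats at 0.61 with C1r, 0.47 with C1qa and C1qb, 0.42 with Serping1 and 0.38 with C1s. C1r was lowest in withdrawal rat 4, at 13.9 CPM. In withdrawal rat 5, also low in Ttr, C1r was at 16.5 CPM, above ethanol rat 3 at 15.0 CPM. Of 11 meningeal fibroblast markers 10 were tested and 0 were called, Col1a2 was listed at 0 in every rat, and the sums were 324 to 449 CPM in control, 363 to 670.3 CPM in ethanol and 159.7 to 742 CPM in withdrawal rats. Thalamic markers, of which 0 of 6 were called, added up to 221 to 694 CPM in control, 175 to 1382 CPM in ethanol and 177 to 523 CPM in withdrawal rats, with the highest sum in ethanol rat 1. Oligodendrocyte markers (0 of 8 called in any comparison) and the 9 neuronal markers were present in every rat at sums of at least 12950.5 and 6217 CPM. Of the neuronal markers 1 was called, Gad2, which encodes a GABA-synthesizing enzyme, higher in withdrawal than in ethanol (122 against 79.8 CPM on average, log2 fold change 0.35, SE 0.08, q = 0.0578).

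**Figure D5:**
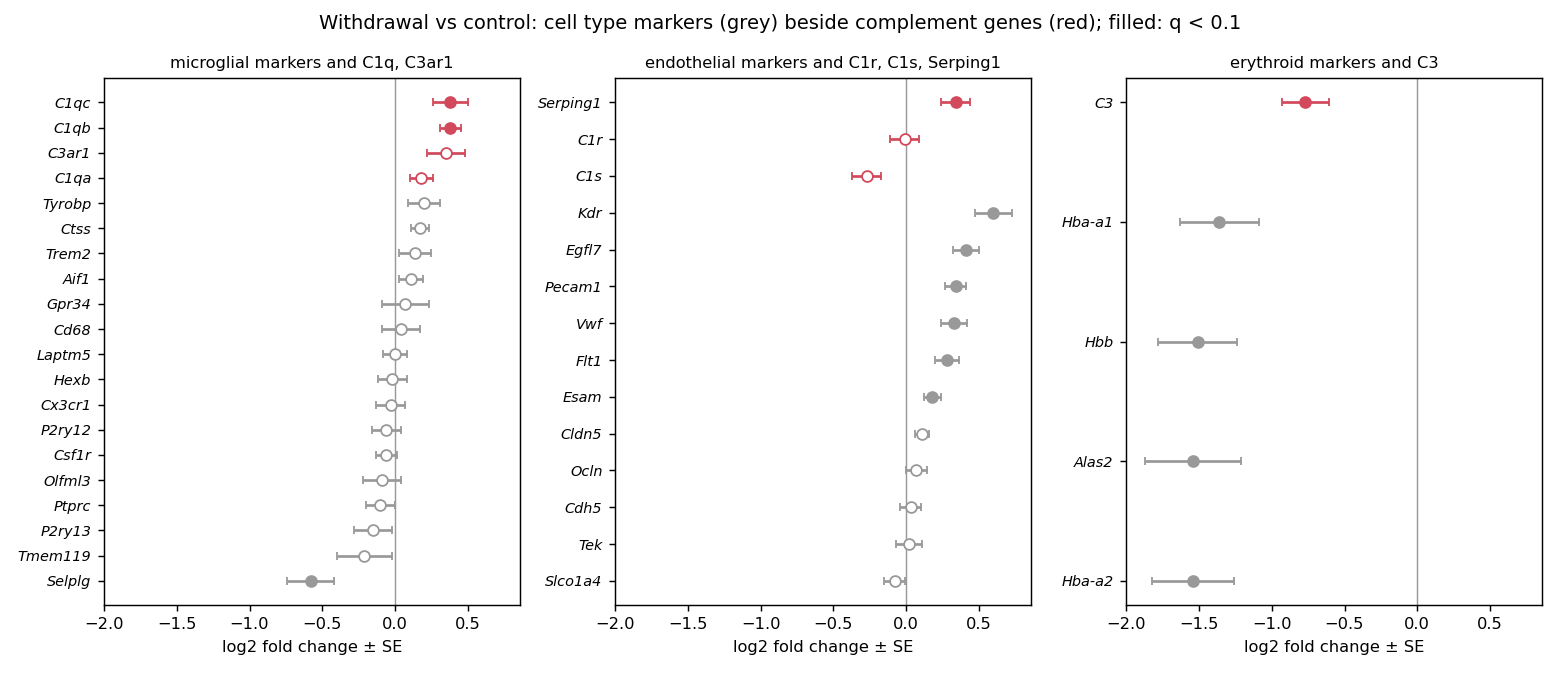
Log2 fold changes with SE between withdrawal and control (x axis) of microglial, endothelial and erythroid markers (grey) and complement genes (red) named on the y axis, with filled points for q < 0.1 over all genes tested. C1qb and C1qc, at 0.38 each, lie above all 16 microglial markers, the highest of which is Tyrobp at 0.20, C1qa, at 0.18, lies below Tyrobp, and C3, at −0.77, lies above all 4 erythroid markers, which are between −1.54 and −1.36.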

How the data were processed

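Per the labels and file headers, the authors made stranded TruSeq mRNA libraries, sequenced read pairs, aligned them with STAR 2.5.2a to Rnor_6.0 and deposited the unnormalized counts of featureCounts 1.5.0. Exons were counted with regard to strand, and chimeric pairs and pairs with several mapping positions were left out. Genes were named by NCBI identifier from the GRCr8 table (29322 of 38445), and all 8 complement genes matched. Groups and rat numbers came from the labels.

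Counts were normalized by TMM (edgeR 4.0.16), and a gene was kept if 1 or more rats exceeded 0.5 CPM (17853 genes). All 18 rats entered 1 limma-voom model (limma 3.58.1, R 4.3.3) with 3 surrogate variables (sva 3.50.0, log2 CPM with a prior count of 2), as in the study's methods, which do not state the number of variables. Benjamini-Hochberg adjustment over all genes tested gave q within each comparison, with a threshold of q < 0.1. The standard errors are those of limma-voom. The test was tested on simulated counts for withdrawal vs control, where 200 of 17241 genes were changed by 2-fold: 200 were recovered with 28 false calls, and 0 genes were called when none was changed. The rats are separate animals. Counting error, taken as the inverse square root of the mean count, was 2.51% to 5.69% for 7 of the genes and 9.25% to 10.8% for C3ar1, and was below the SD between rats except for C1r in control rats.

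The complement genes, gene lists and tests were chosen with earlier results of these data known. The genes named are the 8 complement genes, other complement genes with q < 0.1 or more than 10 CPM in control rats or removed by the filter, the markers with q < 0.1 (at most 4 per list), and for each of the 8 the 3 genes of at least 1 CPM that correlated most with it. The result of 1 gene that met this rule is not reported here. Genes named outside this rule (Cfb, Tyrobp, Trem2, Slco1a4, Tek, Cdh5, Ocln, Cldn5, Ctss, Csf1r, Cx3cr1, P2ry12, Ttr, Fibcd1, Otx2, Col1a2 and the terminal genes) were chosen after their values were seen. Alternatives were other numbers of surrogate variables, edgeR quasi-likelihood and DESeq2 1.42.0 tests, other scaling, filters and weights, a replicate block, q < 0.05 and leaving out rats. Python 3.11.15, pandas 2.3.3 and matplotlib 3.10.9 made the tables and plots.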

Additional observations from a re-analysis of the deposited data

Results flagged for a closer look

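C3 in ethanol rat 4, at 26.7 CPM, lay far above the other 5 ethanol rats, which were between 15.7 and 19.7 CPM. The gap to its nearest neighbour was 0.635 of the range of the group. This was 1 of 24 sets of 6 rats examined in this way (8 genes in 3 groups), and chance marks about 1 in 20.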

How the results depend on the processing

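The number of the 8 genes called was 1 between ethanol and control, 4 between withdrawal and control and 1 between withdrawal and ethanol. Between ethanol and control it was 0 with no filter, at q < 0.05 and with a replicate block and 0 surrogate variables. Between withdrawal and control it was 1 with 0 surrogate variables (limma-voom and edgeR), 2 with 2 surrogate variables, with no filter, with quality weights and at q < 0.05, and 0 with a replicate block and 0 surrogate variables or without withdrawal rats 4 and 5, a choice made after seeing the data, as was that block. C1s was called between withdrawal and control with DESeq2 and with the replicate block, but not in the main fit. Between withdrawal and ethanol the number was 2 with 4 surrogate variables, DESeq2 or quality weights and 0 with a replicate block, with or without surrogate variables. Leaving out each rat in turn gave 0 to 1, 0 to 5 and 0 to 2, while the share of all genes called, 0.493%, 5.41% and 2.72% with all rats, ran from 0% to 1.45%, 0.129% to 10.7% and 0% to 10.1%. With 0 surrogate variables these shares were 0.28%, 0.23% and 3.48%.

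The number of other complement genes called was 2, 1 and 1. Between ethanol and control it was 0 with 0 surrogate variables (limma-voom and edgeR), no filter, q < 0.05 or a replicate block with 0 surrogate variables, and 1 with the block alone. Between withdrawal and control it was 0 with 0 or 2 surrogate variables, edgeR with 0, q < 0.05, the block with 0 or without withdrawal rats 4 and 5, 2 with edgeR, quality weights or the block, 3 with 4 surrogate variables and 5 with DESeq2. Between withdrawal and ethanol it was 0 with no filter, q < 0.05 or either block, 2 with edgeR, RLE scaling or a filter on 6 rats, 3 with 0 (limma-voom and edgeR) or 4 surrogate variables or quality weights, and 4 with DESeq2. Leaving out each rat gave 0 to 2, 0 to 4 and 0 to 5. The causes were not tested.

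Sign changes were limited to C1qb and C1r among the 8 genes. C1qb between ethanol and control was −0.0013 with 0 and −0.01 with 2 surrogate variables, −0.0027 with edgeR or a replicate block and 0, and −0.03 without withdrawal rats 4 and 5, and ranged from −0.01 to 0.07 over the rats left out. C1r between ethanol and control was 0.03 with 0 surrogate variables, 0.05 with edgeR and 0, and 0.04 with the block and 0 (−0.16 to 0.03 over the rats left out). C1r between withdrawal and control was 0.01 with no filter and 0.13 without withdrawal rats 4 and 5 (−0.04 to 0.04), and between withdrawal and ethanol −0.11 with 0 surrogate variables and −0.12 with edgeR or the block and 0 (−0.05 to 0.17).

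Rats with the same number are different animals, and the correlations of their deviations ran from −0.325 to 0.383. These values cannot decide whether the numbers pair the rats, because rats with different numbers were not compared. The rats were pair fed per the study's methods, and the labels do not say whether the numbers follow that feeding. With the replicate block, 33, 941 and 1 genes were called over all genes in the 3 comparisons, against 88, 965 and 486 without it. Among the 8 genes the block ended the calls of Serping1 between withdrawal and control (q = 0.13) and of C1qb between withdrawal and ethanol (q = 0.124) and added C1s between withdrawal and control (q = 0.0996). The planned comparison of exon length with coding length was not run. C3ar1, at 71 to 142 counts, is the gene for which depth limits precision most.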
